A study of Mus musculus with 27 samples.

Results

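Keratins and other genes of epithelial identity were read in segments of mouse liver metastases that are labelled as remainder. The readings came from a whole-transcriptome panel of hybridised probes that carry sequencing tags (GeoMx). The set held 10 genes chosen by name: the keratins Krt7, Krt8, Krt18, Krt19 and Krt20, the surface protein genes Epcam and Cdh1, the intestinal genes Cdx2 and Vil1, and Vim, which encodes the filament protein of mesenchymal cells. All 10 were found among the 19615 targets of the deposited table, each as 1 target. MC38 cells, a colon carcinoma line from C57BL/6 mice, had been injected into the portal vein of C57BL/6 mice that were 2 months old. The 14 control regions came from metastases of MC38 cells carrying a nontargeting shRNA and the 13 other regions from metastases of MC38 cells carrying an shRNA against CMTM6, a membrane protein, and both groups therefore carried an shRNA. Regions were picked on sections stained with antibodies against pan-cytokeratin, to label the cancer cells, and desmin, to label fibroblasts. Keratin protein therefore had a part in the choice of regions. The deposited segments are labelled only as the remainder, which is read here as the part outside desmin. There were fewer mice than regions and the labels do not tie a region to its mouse. Some regions therefore came from the same animal. Every p-value below takes regions as independent and is too small for that reason, and every interval is too narrow.

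The groups overlapped in the targeted gene. Cmtm6 read 511 at the lowest, 641 at the median and 701 at the highest in control regions, and 417, 607 and 722 in regions labelled as knockdown, on a scale that sets every region to the same median over all targets. The difference was -0.06 on the log2 scale (SE 0.07, adjusted p = 0.631 by limma), with overlapping groups, so the second group is called knockdown-labelled here. The common scale was needed because the tables of the 2 groups had been normalized separately. Each deposited value was a whole multiple of a small step that differed between regions, and the totals ran from 9977866 to 26328209 steps in control regions and from 4223031 to 19827297 steps in knockdown-labelled regions. Whether 1 step is 1 count is not given in the sources used here.

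Epithelial cells hold a skeleton of keratin filaments, each built from pairs of a type I and a type II keratin. In simple epithelia such as the gut lining, the bile ducts and the adenocarcinomas that arise from them, the leading pair is Krt8 (type II) with Krt18 (type I), joined by Krt19, Krt20 and, in ducts, Krt7. E-cadherin (Cdh1) joins neighbouring cells at adherens junctions, Epcam is a surface adhesion protein, Cdx2 is a transcription factor that specifies intestinal epithelium, and villin (Vil1) bundles actin in microvilli. In an epithelial-mesenchymal transition these genes are lowered and vimentin is raised, under repressors of the Snail and ZEB families that bind E-box sequences in promoters of epithelial genes. Fibroblasts, macrophages and endothelial cells also make vimentin.

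The 10 genes lie on several chromosomes (GENCODE annotation of GRCm38). Krt8 (chr15:101996698-102004482, minus strand) and Krt18 (chr15:102028180-102032027, plus strand) are neighbours with 23697 bases between them, and Krt7 (chr15:101411043-101430313, plus strand) lies in the same cluster of chromosome 15. Krt20 (chr11:99428403-99438150, minus strand) and Krt19 (chr11:100140810-100148665, minus strand) lie on chromosome 11. Vim lies at chr2:13573927-13582826 on the plus strand. A processed pseudogene, Krt8-ps, lies at chr7:23357125-23358069. The probe sequences were not used here, so whether the Krt8 probe also matches that pseudogene was not tested.

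RefSeq promoter windows (build GRCm38.p6) were matched for 8 of the 10 genes, without Krt19 and Cdh1. They are shown because the keratin pair, Epcam and Vim are the genes on which the readings below turn and because the mRNAs of E-box repressors were read in the same regions. The search covered the 250 bases before the start of the RefSeq entry. That start lies inside the outer GENCODE limits given above for Krt7, Krt8, Krt18 and Vim, so their windows overlap the annotated gene or lie within it. It looked for the E-box CAGGTG on both strands (CACCTG on the other) and, as a second motif that shares no bases with it here, TATAAA on both strands (TTTATA on the other). Capitals mark a match to either motif. The windows are chr15:102004343-102004592 (Krt8, minus strand), chr15:102027966-102028215 (Krt18, plus strand), chr15:101412153-101412402 (Krt7, plus strand), chr17:87635729-87635978 (Epcam, plus strand) and chr2:13574061-13574310 (Vim, plus strand).
Krt8: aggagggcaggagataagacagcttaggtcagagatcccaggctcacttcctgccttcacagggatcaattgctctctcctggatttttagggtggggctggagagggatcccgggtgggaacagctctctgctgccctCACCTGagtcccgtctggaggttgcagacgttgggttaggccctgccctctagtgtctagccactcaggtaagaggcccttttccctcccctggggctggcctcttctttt
Krt18: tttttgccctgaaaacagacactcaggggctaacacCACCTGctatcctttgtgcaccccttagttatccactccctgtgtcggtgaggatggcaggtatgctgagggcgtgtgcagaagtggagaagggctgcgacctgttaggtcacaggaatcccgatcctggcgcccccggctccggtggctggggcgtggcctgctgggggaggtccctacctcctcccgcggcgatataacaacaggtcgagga
Krt7: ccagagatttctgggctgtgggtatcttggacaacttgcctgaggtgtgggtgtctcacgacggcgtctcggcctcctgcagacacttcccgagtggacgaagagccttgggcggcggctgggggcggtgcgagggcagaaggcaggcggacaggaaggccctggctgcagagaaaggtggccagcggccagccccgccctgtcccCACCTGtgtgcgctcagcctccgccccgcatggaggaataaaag
Epcam: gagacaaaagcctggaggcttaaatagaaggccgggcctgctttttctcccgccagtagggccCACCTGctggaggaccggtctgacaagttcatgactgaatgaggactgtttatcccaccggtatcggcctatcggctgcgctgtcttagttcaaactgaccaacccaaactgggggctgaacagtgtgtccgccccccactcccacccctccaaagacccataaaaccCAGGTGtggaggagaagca
Vim: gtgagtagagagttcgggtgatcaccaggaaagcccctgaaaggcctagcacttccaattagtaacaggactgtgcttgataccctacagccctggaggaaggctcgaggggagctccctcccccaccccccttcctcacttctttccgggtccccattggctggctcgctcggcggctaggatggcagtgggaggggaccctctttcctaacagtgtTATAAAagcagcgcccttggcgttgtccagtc
The E-box occurred in 4 of the 8 windows, namely those of Krt7, Krt8, Krt18 and Epcam, and in 17.2% of all 32851 windows of the same length. Its first base lay 111 bases before the start of Krt8, 214 bases before that of Krt18 and 44 bases before that of Krt7. Epcam held a pair of them, at 187 and 19 bases. TATAAA occurred in Vim and Krt20 and in 12.4% of all windows. A match of letters is a description of the window and not a bound site.

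Vim and Krt8 were the only members that read above background. Background was set by the 899 odorant receptor genes of the deposited table, which are made chiefly in the olfactory epithelium. The limit for a gene's mean log2 reading over the 27 regions was percentile 95 of the odorant receptor means, 7.60 on the log2 scale or a signal of 193. Over that limit lay 10903 of the 19615 targets (55.6%). The mean log2 reading was 14.69 for Vim and 8.03 for Krt8. It was 7.54 for Epcam, 7.54 for Cdh1, 7.48 for Cdx2, 7.34 for Krt18, 7.09 for Krt19, 7.08 for Krt20, 7.02 for Krt7 and 6.75 for Vil1. A reading inside the range of the odorant receptor genes says that no mRNA was detectable over background with that probe, not that the mRNA is absent.

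**Figure D1:**
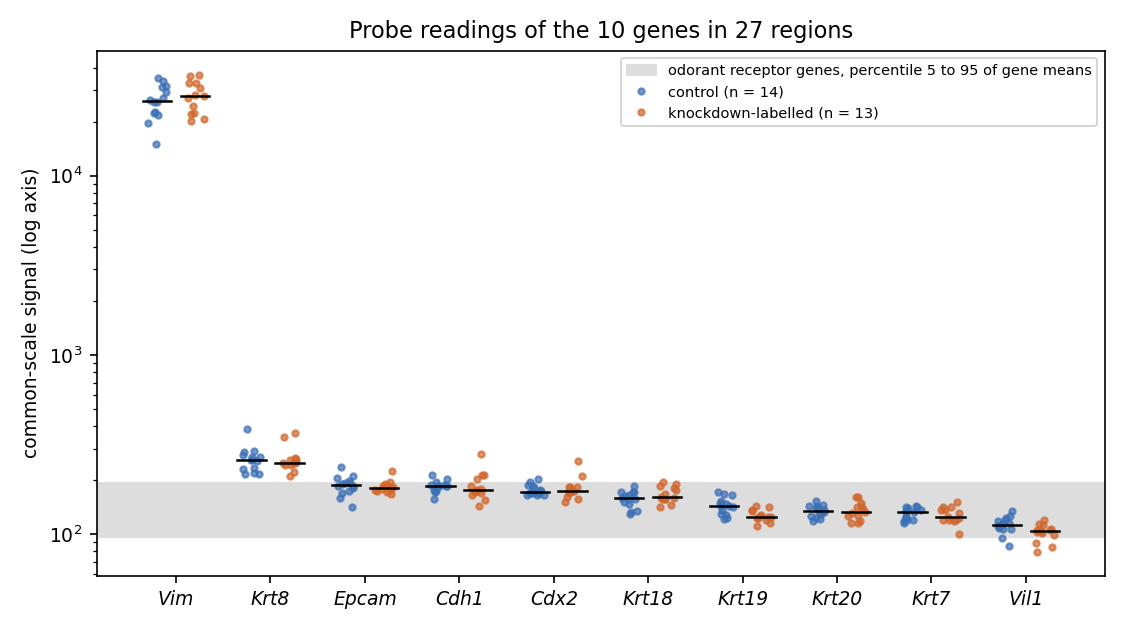
Readings of the 10 genes in 27 regions, as common-scale signal on a log axis. Points are regions (blue, 14 control; orange, 13 knockdown-labelled), black lines are group medians and the grey band spans percentiles 5 to 95 of the mean readings of the 899 odorant receptor genes. Vim lies far over every other gene, Krt8 lies just over the band, and the medians of the other 8 genes lie within it.

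Vim, the filament gene of mesenchymal cells, stood at rank 24 of the 19615 targets. In control regions it read 15074 at the lowest, 26143 at the median and 35198 at the highest, and in knockdown-labelled regions 20172.5, 27828.5 and 36606. This was 117 to 307 times the median odorant receptor reading of the same region. The groups overlapped over most of their range, and the lowest region of all was a control.

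Krt8, the type II keratin of simple epithelia, read far lower. It read 216, 259 and 387 in control regions (lowest, median and highest) and 211, 249.8 and 365 in knockdown-labelled regions. These readings were 1.69 to 3.14 times the region's own odorant receptor median. In all 27 regions Krt8 was over percentile 95 of the odorant receptor genes of that region, a mark that 13 of the 899 odorant receptor genes (1.45%) and 9265 of all targets (47.2%) also met in every region. Its rank was 9391 of 19615, close to the middle of the deposited targets, and 98.8% of the odorant receptor genes had a lower mean. With percentile 99 of the odorant receptor genes as the limit, 8.09 on the log2 scale, Krt8 fell below it and Vim alone remained above.

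Krt18, the type I partner of Krt8, read inside the background. It read 129.7, 159 and 185 in control regions and 142, 162 and 196 in knockdown-labelled regions (lowest, median, highest). It was over its region's percentile 95 in 1 of 27 regions, knockdown-labelled replicate 4, which held its highest reading. Krt8 read higher than Krt18 in 27 of 27 regions, by 0.68 ± 0.21 on the log2 scale (SD, n = 27). Each gene has 1 probe here, so this difference is one between probe readings, in which the efficiency of the probes cannot be told apart from the amounts of mRNA. Since Krt18 was not above background, its size is no measure of the ratio of the mRNAs.

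Krt19, Krt20 and Krt7 read at the middle of the odorant receptor genes. Krt19, a type I keratin of ducts and gut, read 122, 143 and 171 in control regions and 111, 125 and 144 in knockdown-labelled regions. Krt20, a type I keratin of differentiated gut epithelium, read 118, 135 and 152 against 115, 133 and 162. Krt7, a type II keratin of ducts, read 115, 133 and 144 against 99.9, 125 and 151. None of these keratins was over the percentile 95 of its region in any region, and their means lay above those of 66.4%, 65.4% and 57.1% of the odorant receptor genes.

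The adhesion genes and Cdx2 read at the upper edge of the background. Epcam read 142, 189 and 237 in control regions (lowest, median, highest) and 167, 180.3 and 224 in knockdown-labelled regions, and was over its region's percentile 95 in 6 of 27 regions. Cdh1 read 158, 185 and 214 in control regions and 143, 175 and 281 in knockdown-labelled regions, also with 6 of 27 regions over their percentile 95. The highest Cdh1 reading, 281 in knockdown-labelled replicate 6, stood apart from the rest and was 2.42 times the odorant receptor median of that region. Krt8 had its lowest reading of all, 211, in the same region.

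Cdx2, the intestinal transcription factor, read 165, 172 and 202 in control regions and 151, 174 and 257 in knockdown-labelled regions, and passed its region's percentile 95 in 3 of 27. Its highest reading came from knockdown-labelled replicate 13, the region with the lowest total. Vil1, the microvillus gene, read 86.0, 113 and 134 in control regions and 79.7, 104 and 120.2 in knockdown-labelled regions. Only 18.2% of the odorant receptor genes had a lower mean than Vil1, and it never passed the percentile 95.

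The order of the readings was firm at the top and loose below. Vim exceeded Krt8 in 27 of 27 regions, and Krt8 exceeded Epcam, the next gene, in 26 of 27. Epcam and Cdh1 differed by 0.003 ± 0.21 (SD, n = 27) on the log2 scale and Cdh1 and Cdx2 by 0.05 ± 0.27, so these neighbours did not differ beyond their spread. The same held for Krt19 and Krt20 (0.01 ± 0.22) and for Krt20 and Krt7 (0.06 ± 0.20). Krt18 exceeded Krt19 in 25 of 27 regions and Krt7 exceeded Vil1 in 25 of 27.

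Across the whole keratin family the pattern was the same. The deposited table held 53 keratin genes, and 3 of them (5.66%) were above background, beside 55.6% of all targets. These were Krt8, Krt80 (mean 7.78 on the log2 scale, over its region's percentile 95 in 22 of 27 regions) and Krt2 (7.63, in 14 of 27). Of the 899 odorant receptor genes, 45 lie above that limit by construction. The median keratin read 7.12 on the log2 scale, against 6.96 for the median odorant receptor gene. Of 19 measured keratins of stratified epithelia 1 was above background, Krt2, a keratin of the upper epidermis. Krt5, the basal keratin, read 6.94.

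**Figure D2:**
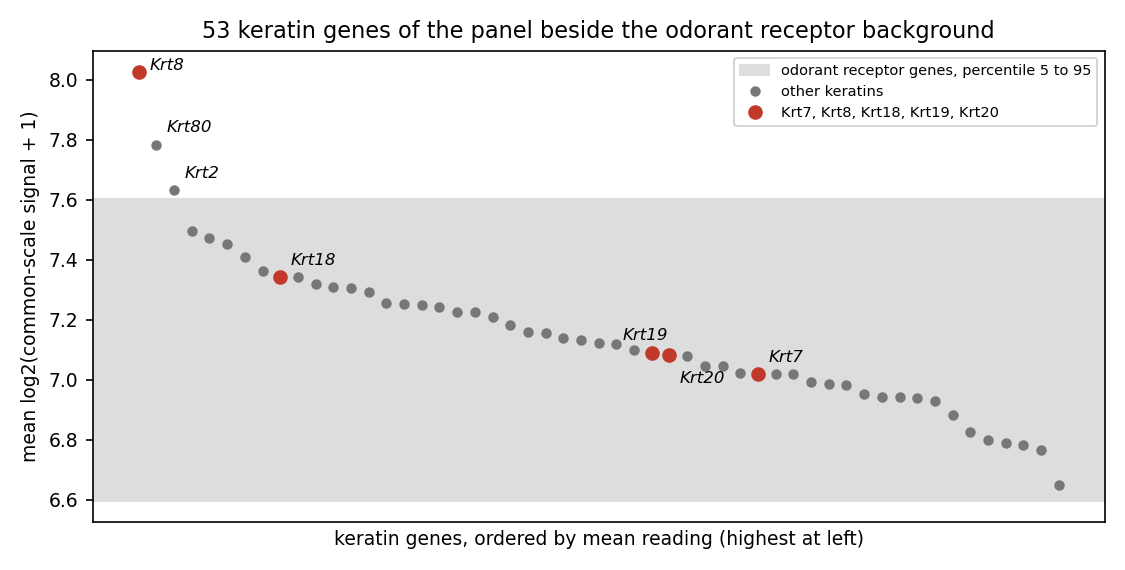
Mean log2(common-scale signal + 1) over 27 regions of the 53 keratin genes, ordered from high to low, with the 5 keratins of the set in red. The grey band spans percentiles 5 to 95 of the 899 odorant receptor genes; Krt8, Krt80 and Krt2 lie above it and 50 keratins lie within it.

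The level of Krt8 varied between regions more than a background reading did. Its pooled SD within the labels was 0.22 on the log2 scale, over that of 98.8% of the odorant receptor genes, whose SDs had a median of 0.15 and a percentile 95 of 0.20. The SD was 0.32 for Vim, 0.19 for Cdh1 and 0.15 for Krt18. A trio of regions held the high Krt8 readings, with 387 in control replicate 1, 365 in knockdown-labelled replicate 13 and 349 in knockdown-labelled replicate 12. The remaining 24 regions lay between 211 and 289.

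Those 3 regions had totals in the lower part of their group, at rank 11 of 14 for control replicate 1 and at ranks 10 and 13 of 13 for knockdown-labelled replicates 12 and 13, counted from the highest. Their summed macrophage markers ranked 5, 3 and 1 in their group. Knockdown-labelled replicate 13 had the lowest total of all, 4223031 steps, and the highest summed reading of the 14 macrophage markers, 34851. Knockdown-labelled replicate 12 had the highest Vim reading, 36606. Control replicate 1 was at rank 8 of 14 in Vim. Over regions, the correlation of log2 Krt8 with log2 total steps was -0.26 in control regions (n = 14) and -0.68 in knockdown-labelled regions (n = 13). These regions share animals and a common scaling, so the values are a description, and the part of depth or of macrophage RNA in the Krt8 readings was not tested.

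**Figure D3:**
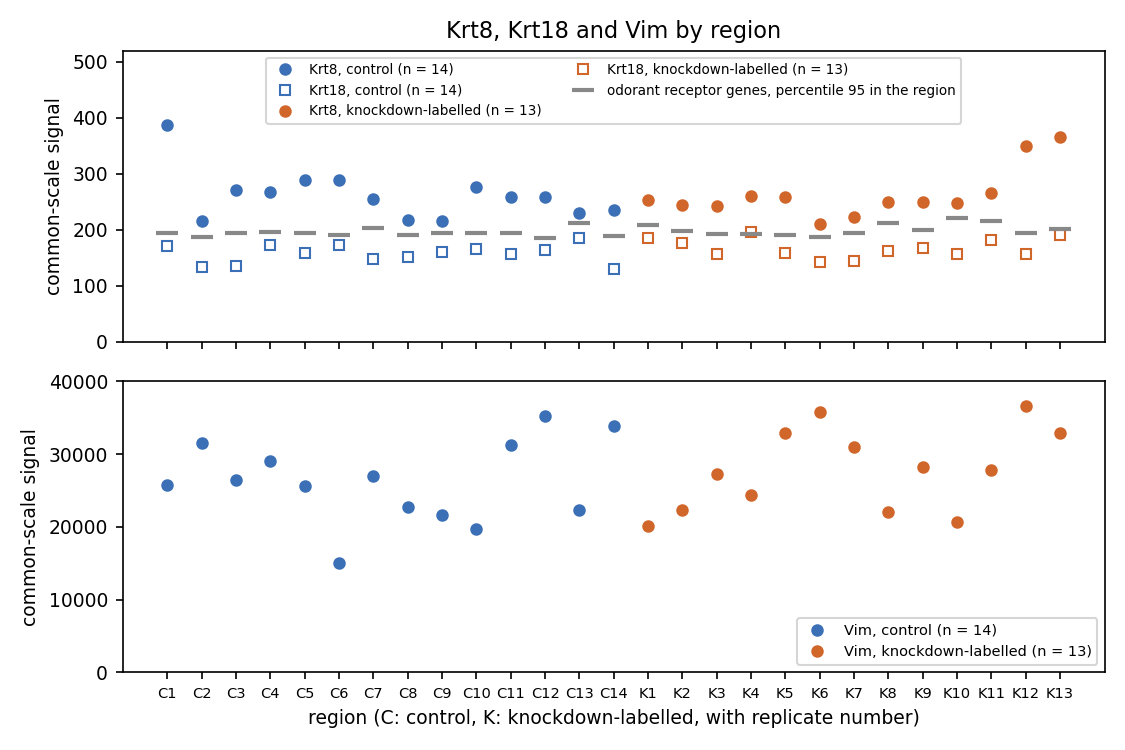
Common-scale signal of Krt8 and Krt18 (upper panel) and of Vim (lower panel) in each region, both on linear axes from 0, with control regions C1 to C14 in blue and knockdown-labelled regions K1 to K13 in orange. Grey bars mark percentile 95 of the odorant receptor genes in that region; Krt8 lies over the bar in all 27 regions and Krt18 in 1.

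Members were also set beside the background of their region. The correlation between a gene and the odorant receptor median of the region, within labels over 27 regions, was 0.39 for the median odorant receptor gene. It was 0.52 for Krt18, 0.52 for Vil1, 0.49 for Epcam, 0.36 for Krt20, 0.34 for Krt19, 0.29 for Krt7 and 0.22 for Cdx2. For Krt7 it was -0.12 among controls and 0.53 among knockdown-labelled regions. It was -0.02 for Krt8, -0.26 for Cdh1 and -0.75 for Vim. The regions were all set to 1 median, which ties the readings of a region together, and no test was made of these values. Krt8 and Krt18 correlated at 0.42 over the 27 regions within labels, with 0.37 among controls and 0.47 among knockdown-labelled regions.

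The genes whose pattern over regions was most like that of Vim were Rsu1 (Pearson r = 0.93), Cav2 (0.93) and Actn1 (0.92), over 27 regions within labels and among the 10902 other genes above background. For Krt8 they were Rreb1 (0.60), Aspa (0.59) and Unc93b1 (0.58). With so many genes searched, the values for both genes are a ranking and no finding. Vim also correlated at -0.75 with the odorant receptor median of the region. The part of the common scaling in the values for Vim was not tested.

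Between the labels, none of the 10 members passed the test. In limma over all targets 763 of 19615 (3.89%) were called at an adjusted p under 0.05 (1.31% higher and 2.58% lower in knockdown-labelled regions), and 20.8% had an unadjusted p under 0.05. Of the members 0 were called, and 2 (Krt19 and Vil1) had an unadjusted p under 0.05. The groups overlapped for every member, as they did for every other target. The differences, knockdown-labelled minus control, ran from -0.18 to 0.09 on the log2(signal + 1) scale, and the median over all targets was -0.04.

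No change of the keratin pair or of Vim was detected. Krt8 differed by 0.01 (95% interval -0.15 to 0.17, adjusted p = 0.979), Krt18 by 0.09 (-0.03 to 0.20, adjusted p = 0.389) and Vim by 0.09 (-0.14 to 0.32, adjusted p = 0.688). These intervals are for probe signal on the common median scale, are too narrow because regions share animals, and set no bound on a change of mRNA. Krt8 read near background, where a difference in signal understates one in mRNA. With the odorant receptor median subtracted Krt8 differed by 0.03 (SE 0.15). With the housekeeping mean Krt8 differed by 0.18 (SE 0.09) and Vim by 0.26 (SE 0.10). The mean common-scale signal of Krt8 was 262 ± 44.1 (SD, n = 14) in control and 263 ± 44.5 (n = 13) in knockdown-labelled regions.

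Krt19 came closest to the threshold. Control regions had a mean of 145 ± 16.1 (SD, n = 14) and knockdown-labelled regions one of 127 ± 9.81 (n = 13), a difference of -0.18 (SE 0.06, limma adjusted p = 0.0561), and 1 of 13 knockdown-labelled regions was above the control mean. The call depended on single regions, since the adjusted p ran from 0.0383 to 0.103 when each region was left out in turn and was under 0.05 without control replicate 2, 11, 12, 13 or 14 or without knockdown-labelled replicate 7. With the regions scaled to the same mean of housekeeping genes, where 22.6% of all targets were called, the difference was -0.01. Krt19 read inside the background in every region of both groups.

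Vil1 differed by -0.14 (SE 0.06, 95% interval -0.27 to -0.01, unadjusted p = 0.034, limma adjusted p = 0.199), with 3 of 13 knockdown-labelled regions above the control mean. With the hepatocyte list as a covariate it differed by -0.24 (adjusted p = 0.0505) and with the housekeeping mean by 0.03, and its readings too were inside the background. The remaining members had smaller differences. Krt7 differed by -0.03, Krt20 by 0.003, Epcam by -0.02, Cdh1 by -0.002 and Cdx2 by 0.02, with adjusted p-values from 0.785 to 0.989 in limma. In the values as deposited all 10 members were lower in knockdown-labelled regions, by -0.41 to -0.68, and so were 98% of all targets (98.1% called in either direction). That comparison sets separately normalized tables side by side.

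**Figure D4:**
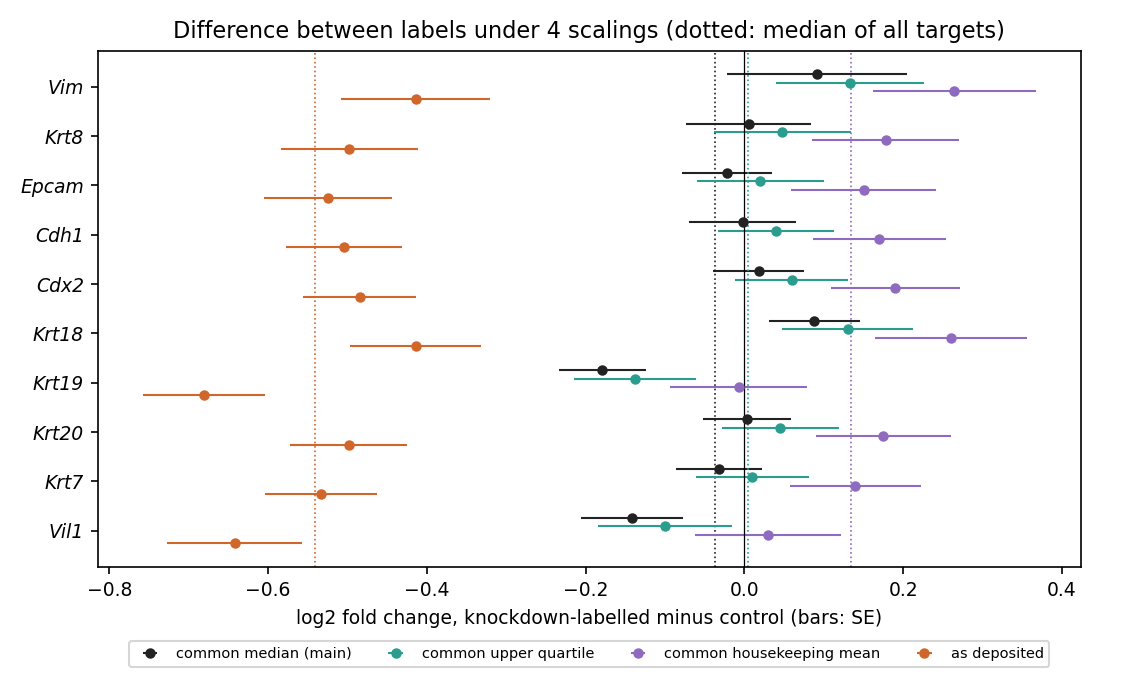
Log2 fold change of each member, knockdown-labelled minus control, under 4 scalings, with bars of 1 SE and dotted lines at the median of all targets under each scaling. The members lie around the dotted line of their scaling, at -0.04 for the common median and -0.54 for the values as deposited.

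Ratios within a region do not depend on how the groups were scaled. The log2 ratio of each of the 9 epithelial members to Vim and that of Krt8 to Krt18 were compared between the labels with a two-sided permutation test (100000 resamples). None of the 10 ratios was called, the lowest adjusted p being 0.659. Krt8 is the only epithelial member above background, so the other ratios set a background reading against Vim or Krt8 and say little on a change of mRNA. For Krt8 to Krt18 the control regions had 0.73 ± 0.22 (SD, n = 14) and the knockdown-labelled regions 0.64 ± 0.20 (n = 13), a difference of -0.08 (95% interval -0.25 to 0.08, permutation p = 0.316). Krt8 to Vim was -6.63 ± 0.43 and -6.71 ± 0.32, a difference of -0.09 (-0.39 to 0.21, permutation p = 0.564). The difference with the lowest p was Krt19 to Vim at -0.27 (-0.60 to 0.05, permutation p = 0.095). With the odorant receptor median of the region subtracted, down to a floor of 1, Krt8 to Krt18 differed by -0.56 (permutation adjusted p = 0.252) and Krt19 to Vim by -2.21 (adjusted p = 0.053), and those values depend on the floor.

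Most genes of the wider epithelial lists read inside the background, while 55.6% of all targets read above it. Of 7 simple epithelial keratins 2 were above background (Krt8 and Krt80), and of 23 genes of epithelial junctions 6 were. The highest of these were the catenins Ctnnb1 (11.47 on the log2 scale), Ctnna1 (10.71) and Ctnnd1 (10.00) and the scaffold Tjp1 (9.57), which serve junctions of many cell types. The junction gene Cgn read 7.26 and the desmosome gene Pkp2 read 6.99, both inside the background. Of 17 epithelial regulators and surface proteases 4 were above, led by Klf4 (8.52), a transcription factor also made by other cells, and by Spint2 (8.11) and Spint1 (7.83), inhibitors of epithelial proteases, with the membrane protease Prss8 (7.74) as the fourth. Spint2 was over its region's percentile 95 in 27 of 27 regions, Prss8 in 25 and Spint1 in 21. Rab25, a trafficking protein of epithelia, read 7.14 and Trp63, the factor of stratified epithelia, 6.91.

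The intestinal lists were mostly at background as well, while 55.6% of all targets were above it. Of 13 measured intestinal regulators 2 were above it, among them Sox9 (10.38), a factor of gut crypts and bile ducts that other tissues also make. Cdx1, the relative of Cdx2, read 7.02, and Klf5 read 7.49. Of 22 genes of intestinal differentiation 2 were above background, Ezr (10.05), which links actin to membranes in many cells, and Espn (7.86). Lgals4 and Phgr1, genes of gut epithelium, read 7.34 and 7.46.

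Mesenchymal genes read high beside them. Of 14 mesenchymal genes 13 were above background, beside 55.6% of all targets. At the top were Vim (14.69), Lgals1 (14.51), S100a4 (13.08), Fn1 (13.03) and Sparc (12.81). Cdh2, the cadherin of mesenchymal and neural cells, read 9.04, and Cdh1 read 7.54. These are readings of different probes, whose efficiency cannot be told apart from the amounts of mRNA. Of 8 transcription factors of the epithelial-mesenchymal transition 7 were above background, namely all but Foxc2 (7.37). Snai1 read 11.20, Prrx1 11.10, Zeb2 10.52, Twist1 9.75 and Snai2 8.22. Among the 16 filament genes other than keratins 7 were above background, with Plec (12.27), Lmna (11.82), Lmnb1 (11.10) and Nes (9.25) next after Vim. The median mean reading was 11.48 for the mesenchymal list and 9.03 for the transition factors. It was 7.26 for the junction list and 7.09 for the simple keratins. Some fibroblast and macrophage markers also read high in these segments. Which cells the mesenchymal and transition factor readings came from was not tested.

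**Figure D5:**
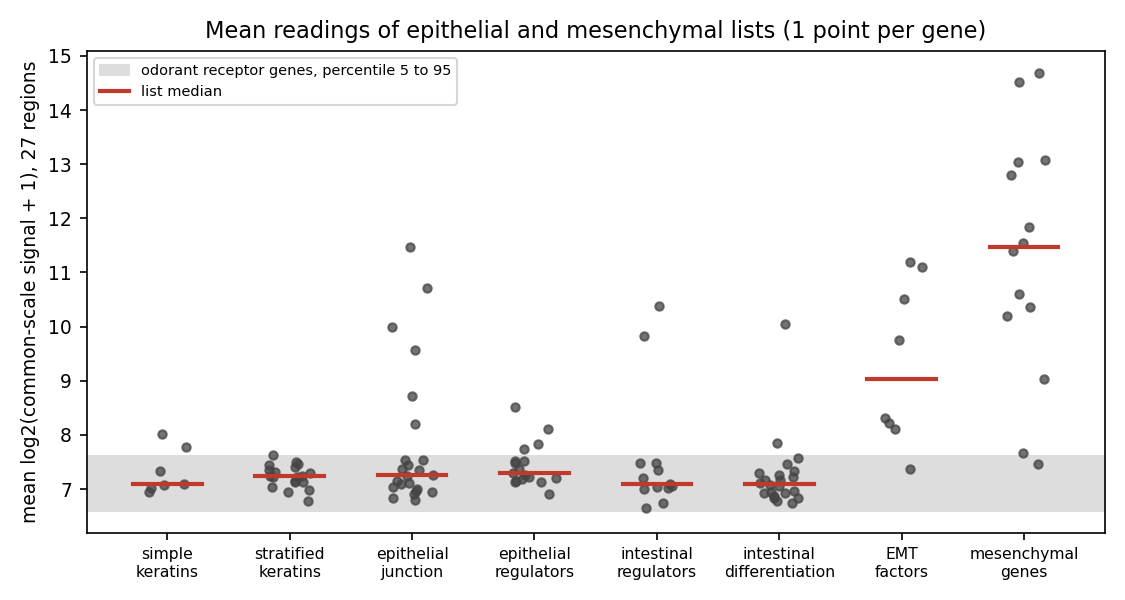
Mean log2(common-scale signal + 1) over 27 regions, 1 point per gene, in 8 lists, with red lines at list medians and a grey band over percentiles 5 to 95 of the odorant receptor genes. The medians of the keratin, junction, regulator and intestinal lists lie between 7.09 and 7.29, inside the band, and those of the transition factors and mesenchymal genes at 9.03 and 11.48, above it.

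Between the labels, 2 genes of these lists were called, both intestinal. No simple or stratified keratin, junction gene, epithelial regulator, transition factor, mesenchymal gene or other filament gene passed the test in either direction, beside 3.89% of all targets. The numbers not called were 7, 19, 23, 17, 8, 14 and 16. The median differences were 0.003 for the simple keratins, -0.02 for junction genes, -0.07 for transition factors and -0.10 for mesenchymal genes, and -0.04 over all targets. The widest single differences, Fn1 at -0.54 (limma adjusted p = 0.0908) and Snai2 at -0.45 (adjusted p = 0.109), did not pass. In the intestinal lists Lgr5, a stem cell receptor, fell by 0.28 (adjusted p = 0.00705, and 0.0425 with log2 total steps as a covariate) while its readings were inside the background, with means of 144 in control and 118 in knockdown-labelled regions. Fabp1, a fatty acid binding protein of gut and of hepatocytes, rose by 0.92 (limma adjusted p = 0.00524), from a mean of 141 to 285. With log2 total steps as a covariate Fabp1 differed by 0.90 (limma adjusted p = 0.0727).

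Markers of other cell types were read in the same segments, where 55.6% of all targets were above background. In sections of this kind, fewer cells of a type and less RNA per cell cannot be told apart. Of 17 measured hepatocyte markers 10 were above background and 6 rose in knockdown-labelled regions (limma), namely Alb, Apoa1, Apoa2, Serpina3k, Cyp2e1 and Ttr, with Alb up by 1.55 (adjusted p = 0.0352), beside 1.31% of all targets called higher. Cyp2e1 and Ttr read inside the background on their means. With log2 total steps as a covariate 0 of the 6 calls were left (limma adjusted p from 0.105 to 0.308). That fit called 0.138% of all targets, and totals differ between the labels. The 6 differences in it ran from 0.64 (Cyp2e1) to 1.44 (Alb), against 0.73 (Ttr) to 1.55 (Alb) without the covariate. The summed signal of the hepatocyte markers ran from 2664 to 6610 in control regions and from 2725 to 14717 in knockdown-labelled regions. Fabp1 rose beside this list, and the part of hepatocyte RNA in it was not tested. Of 11 markers of bile duct cells 3 were above background, Spp1 (14.90), Slc4a2 (10.55) and Sox9, and the defining gene Cftr was not. The summed signal, which is mostly Spp1, ran from 27886 to 69243 in control and from 14888 to 50883 in knockdown-labelled regions. Of 7 mesothelial markers 1 was above background, Upk1b, with sums of 957 to 1107 and 902 to 1081. Bile duct cells and the mesothelium also carry Krt8, Krt18 and Krt19. How much of the Krt8 reading came from these cells, from hepatocytes or from tumour cells was not tested.

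Some fibroblast and macrophage markers read high, and those of lymphocytes and endothelium mostly inside the background. The counts of markers above background stand beside 55.6% of all targets. Of 16 markers of fibroblasts or stellate cells 11 were above background, with Col3a1 at 13.99 and Col1a1 at 12.33. The segments are read here as lying outside desmin staining. The sums of these 16 markers ran from 15552 to 46239 in control and from 18916 to 35610 in knockdown-labelled regions. Of the 16, 1, Thy1, rose (by 0.50, limma adjusted p = 0.0192). The other 15 were not called, and the median difference of the list was -0.07. Which cells the Thy1 readings came from was not tested. Of 14 macrophage markers 9 were above background and the rest, among them Cd163 (7.17), were not. Of the 14, 1, Csf1r, rose (by 0.33, limma adjusted p = 0.0259), with sums of 10490 to 20863 and of 11823 to 34851. Of 14 markers of T or NK cells 6 were above background and 5 rose, Cd3d, Cd3e, Nkg7, Trac and Prf1, beside 1.31% of all targets called higher, with sums of 1997 to 3264 and of 2557 to 4409. Cd3d (7.54) and Prf1 (7.56) read inside the background on their means. With log2 total as a covariate the limma adjusted p was 0.13 to 0.26 for these 5, 0.267 for Thy1 and 0.263 for Csf1r. None of these calls was left, in a fit that called 0.138% of all targets. The differences of the 5 ran from 0.28 (Prf1) to 0.51 (Trac) in that fit, against 0.30 (Prf1) to 0.65 (Trac) without the covariate. Thy1 differed by 0.34 in it and Csf1r by 0.28. Of 12 endothelial markers 3 were above background and none was called, with sums of 1988 to 2451 and of 1858 to 2656. No marker of any of these lists read 0, since the lowest reading of any target in a region was 10 to 126 steps.

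Vim correlated positively with the fibroblast and macrophage sums in both groups, and with no other marker sum in both. Its correlation with the summed fibroblast markers was 0.87 in control regions (n = 14) and 0.34 in knockdown-labelled regions (n = 13), and with the macrophage sum 0.66 and 0.54. It was -0.77 and 0.16 with the hepatocyte sum, -0.69 and 0.07 with the bile duct sum and -0.28 and -0.60 with the mesothelial sum. With the T or NK sum it was -0.10 and -0.59, and with the endothelial sum 0.42 and -0.59. Of 7 mesothelial markers 1 and of 12 endothelial markers 3 were above background. Those sums are therefore partly background readings and say little on these cell types. Vim itself correlated at -0.75 with the odorant receptor median of the region. Control replicate 6 held the lowest Vim reading, 15074, together with the lowest fibroblast sum, 15552, and the highest hepatocyte and bile duct sums of the controls, 6610 and 69243. Control replicate 12 held the highest control reading of Vim, 35198, with the highest fibroblast and macrophage sums of the controls. How much of the Vim reading came from tumour cells and how much from these cells was not tested. The part of the common scaling in these correlations was not tested either. For Krt8 the correlation with the hepatocyte sum was 0.08 in control and 0.15 in knockdown-labelled regions. With the bile duct sum it was 0.31 and 0.32, and with the fibroblast sum -0.14 and -0.16. With the macrophage sum it was -0.07 and 0.60. Among knockdown-labelled regions, the same region held the highest Krt8 reading and the highest macrophage sum.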

How the data were processed

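Processing by the authors. Probes of a mouse whole-transcriptome panel were hybridised to formalin-fixed frozen sections, areas were chosen by immunofluorescence, and released tags were sequenced. The study names the GeoMx DSP Analysis Suite; its version, and whether targets were filtered, is not given in the sources used here. Deposited values are normalized signal, 1 column per region (27 regions) and 1 row per target (19615), and no count model was run on them. Their upper quartile was nearly equal within each group (median 788 in control, 539 in knockdown-labelled regions), so each group had been normalized alone. In every region at least 99.96% of values lay within 0.01 of a whole multiple of that region's step.

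Processing here. Every region was scaled to a median of 237 over all targets. limma 3.58.1 (R 4.3.3; trend and robust settings; two-sided, with p-values adjusted by Benjamini-Hochberg across the 19615 targets and called under 0.05) was fitted on log2(signal + 1) over all regions; a fold change on this scale understates that of low genes. Ratios were tested with scipy 1.17.1. Scripts were tested on simulated data. Groups and the order of replicate numbers follow the labels. Text names the 10 members, from each list the called genes, at most 3 of lowest p and at most 3 of highest mean, genes most like Krt8 or Vim and, beyond that rule, genes of a list singled out after their values were seen. Some list genes are not reported here. Members and lists were chosen with earlier results of these data known. Alternatives were other scalings, pseudocounts, background limits, covariates, a rank-sum test and leaving out each region.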

Additional observations from a re-analysis of the deposited data

How the results depend on the processing

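The number of members called between the labels was 0 and stayed 0 under 14 of 17 alternatives. It was 10 in the values as deposited, 1 with regions scaled to the same housekeeping mean (Krt18 at 0.26, limma adjusted p = 0.0465) and 1 with the fibroblast list as a covariate (Krt19 at -0.18, adjusted p = 0.0461). It ran from 0 to 1 when each region was left out. As deposited, the sign turned for Krt8 (-0.50), Krt18 (-0.41), Krt20 (-0.50), Cdx2 (-0.48) and Vim (-0.41). The median over all targets moved from -0.04 to -0.54 as deposited and to 0.13 with the housekeeping mean, where 4 of the 15 housekeeping genes were themselves called lower on the common median (Pgk1, Tfrc, Rplp0, Rpl13a), so member values there read relative to that shift. Calls over all targets were 256 higher and 507 lower with the common median, 220 and 213 with the common upper quartile, 257 and 146 with the common total, 4366 and 58 with the housekeeping mean and 14 and 19222 as deposited; with log2 total as a covariate 27 were called and with the macrophage list 111. The genes of the lists called numbered 15, against 191 as deposited and 1 with log2 total as a covariate; the cause was not tested. Totals differ between the labels (median 18215202 and 11813174 steps). Members above background numbered 2, and 1 with percentile 99 (Vim), and stayed 2 with each region left out and under a limit counted within regions that was added after seeing the data. With genes above background only, 8 members have no value. Ratios called numbered 0 in every alternative run. No paired analysis was possible because the groups share no region number in the labels.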
